A study of Homo sapiens with 9 samples.

Results

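A group of 146 genes lost most of its transcript in THP-1 cells given LPS, and each of the 146 genes regained a part of that loss, on its mean, when PD was given with LPS. The genes were chosen from the deposited FPKM values (fragments scaled to exon length and library depth). The choice asked for a control mean of at least 10 FPKM and a control mean at least 3 times the LPS mean, in a gene with a symbol. Of 13692 genes tested below, 4.78% had a control mean at least 3 times the LPS mean at any level. The 146 genes are 3.21% of the 4552 genes with a control mean of at least 10 FPKM, in a table of 34643 genes. Most genes of that control level with a smaller fall, 1.5 to 3 times, also rose, on their mean, when PD was given with LPS. THP-1 is a human monocytic leukaemia line of wild-type genotype per the labels, and PMA, a phorbol ester, drives it towards a macrophage-like state. All 9 libraries came from cells that had received 500 nM PMA for 4 h and 24 h of rest. The 3 LPS+PD libraries (replicates 7 to 9) had 1 µg/mL LPS, the bacterial lipopolysaccharide, and 10 µM PD, which the series title gives as panaxadiol. The 3 LPS libraries (replicates 4 to 6) had the same dose of LPS alone, and the 3 control libraries (replicates 1 to 3) had neither. No PD-only group was part of the design. The model is 1 cell line, and no label says that the libraries of a group came from separate cultures, so p-values measure the spread between libraries, which may be technical. The recovered depth was 15641330 to 17875151 fragments per library, and the 3 groups covered similar ranges. The control and LPS values chose the genes, so the fall with LPS is given as a description.

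LPS is sensed by TLR4 on monocytes and macrophages, and the resulting signal turns on inflammatory genes while many genes of the resting or immature cell are turned down. THP-1 cells retain features of a granulocyte-monocyte precursor, among them the azurophil granule proteases elastase, proteinase 3 and cathepsin G, whose genes are normally transcribed in promyelocytes and silenced as myeloid cells mature. PU.1, C/EBP proteins and MYB are transcription factors known to drive these granule genes. Panaxadiol is a dammarane-type triterpenoid of ginseng.

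Promoter sequences of 5 of the 146 genes are shown because these genes span the pattern in FPKM. There CTSG, PRTN3, MS4A3 and SERPINB2 regained 5.45% to 12.2% of their loss, and RPS6KA4 39.3%. On the log2(FPKM + 1) scale CTSG regained 24.4%, PRTN3 24.3%, MS4A3 24.4%, SERPINB2 38.85% and RPS6KA4 55.4%, so SERPINB2 was low in FPKM only. Each is the stretch upstream of the first listed RefSeq start (GRCh38.p14), up to 250 bases, without bases that an exon of GENCODE v29 covers, written 5′ to 3′ on the gene's own strand. Capitals mark GAGGAA (the PU.1 type), TTGCNNAA (the C/EBP type) and AACNG (the MYB core) on either strand. The CTSG stretch is chr14:24576261-24576500 on the minus strand. On the plus strand lie those of PRTN3 (chr19:840749-840959), MS4A3 (chr11:60056415-60056586), SERPINB2 (chr18:63887455-63887699) and RPS6KA4 (chr11:64358912-64359147).
CTSG: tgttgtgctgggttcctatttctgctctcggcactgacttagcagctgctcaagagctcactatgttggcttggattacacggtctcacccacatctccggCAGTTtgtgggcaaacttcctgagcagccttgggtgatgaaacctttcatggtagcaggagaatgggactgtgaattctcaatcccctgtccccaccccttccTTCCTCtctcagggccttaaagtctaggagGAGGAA
PRTN3: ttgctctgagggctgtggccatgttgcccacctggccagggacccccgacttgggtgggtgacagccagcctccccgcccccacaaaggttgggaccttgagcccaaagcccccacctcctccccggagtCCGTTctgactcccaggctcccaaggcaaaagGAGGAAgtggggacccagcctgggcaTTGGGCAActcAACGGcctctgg
MS4A3: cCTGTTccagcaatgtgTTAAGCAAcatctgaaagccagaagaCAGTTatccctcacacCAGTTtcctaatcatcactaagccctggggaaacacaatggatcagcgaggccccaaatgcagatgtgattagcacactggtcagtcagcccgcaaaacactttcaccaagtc
SERPINB2: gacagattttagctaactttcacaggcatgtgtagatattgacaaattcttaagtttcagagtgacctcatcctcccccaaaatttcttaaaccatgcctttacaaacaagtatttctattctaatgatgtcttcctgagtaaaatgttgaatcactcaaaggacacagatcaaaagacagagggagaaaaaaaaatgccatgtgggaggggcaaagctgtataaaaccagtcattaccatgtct
RPS6KA4: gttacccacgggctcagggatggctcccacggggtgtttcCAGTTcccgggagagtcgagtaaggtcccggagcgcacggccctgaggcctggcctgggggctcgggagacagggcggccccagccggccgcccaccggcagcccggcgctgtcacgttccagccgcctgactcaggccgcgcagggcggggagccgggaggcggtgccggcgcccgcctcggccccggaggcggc
The CTSG stretch holds GAGGAA 2 times, at -46 to -41 and at -16 to -11 from the start. PRTN3 holds it 1 time, at -88 to -83, with 1 C/EBP-type match at -62 to -55 and 2 AACNG matches, and none of these matches overlap. MS4A3 has 3 AACNG matches and 1 C/EBP-type match, RPS6KA4 has 1 AACNG match, and SERPINB2 has none of the 3 motifs. The SERPINB2 stretch is AT-rich, with 37.1% G and C, against 77.1% in RPS6KA4. It lies inside the deposited span of SERPINB2, which begins upstream of this start. Over the whole group, promoter windows of 300 bases were found for 91 genes, and 10 motifs were searched on both strands. GAGGAA was in 33.0% of these, against 28% of 3509 windows of genes with a control mean of at least 10 FPKM and 27.6% of all 27305 windows. TTGCNNAA was in 13.2% of the 91, against 7.07% and 10.6%, AACNG in 70.3%, against 76.5% and 77.1%, and the ETS core CCGGAA in 16.5%, against 34.3% and 17.6%. The other 6 motifs were the GATA type AGATAA, the runt type with the letters ACCACA, the AP-1 type written TGANTCA, the E-box CACGTG, the TATA box in the form TATAAA and an interferon response element. AGATAA was in 7.69% of the 91 windows, against 3.96% of those of the genes with a control mean of at least 10 FPKM and 10.5% of all windows. In the same order, TGANTCA was in 8.79%, 3.93% and 7.76%, and CACGTG in 5.49%, 11.1% and 7.43%. ACCACA was in 12.1%, 9.26% and 13.1%, TATAAA in 7.69%, 5.24% and 12%, and the interferon response element in 3.30%, 3.08% and 3.65%. A match describes letters in a window and was not tested.

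Every one of the 146 genes had all 3 LPS libraries below all 3 control libraries, which the choice of genes largely fixes and which 41.8% of the 13692 tested genes also did. LPS left the median gene of the group at 23.3% of its control mean, with extremes of 1.41% and 33.3%. With LPS+PD the median gene stood at 38.3% of its control mean, with extremes of 5.58% and 73.9%. Summed over the group, the level was 5221.9, 5105.7 and 5171 FPKM in the 3 LPS+PD libraries, 3410.6, 3144.9 and 3199.8 FPKM in the 3 LPS libraries and 13747, 14223 and 13660 FPKM in the 3 control libraries. The LPS+PD libraries therefore sat above every LPS library and far below every control library. These sums were 1.76% to 1.79% of all FPKM of an LPS+PD library, 1.09% to 1.18% of an LPS library and 4.65% to 4.77% of a control library. In bulk RNA, fewer cells that express a gene and less RNA per cell cannot be told apart.

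**Figure D1:**
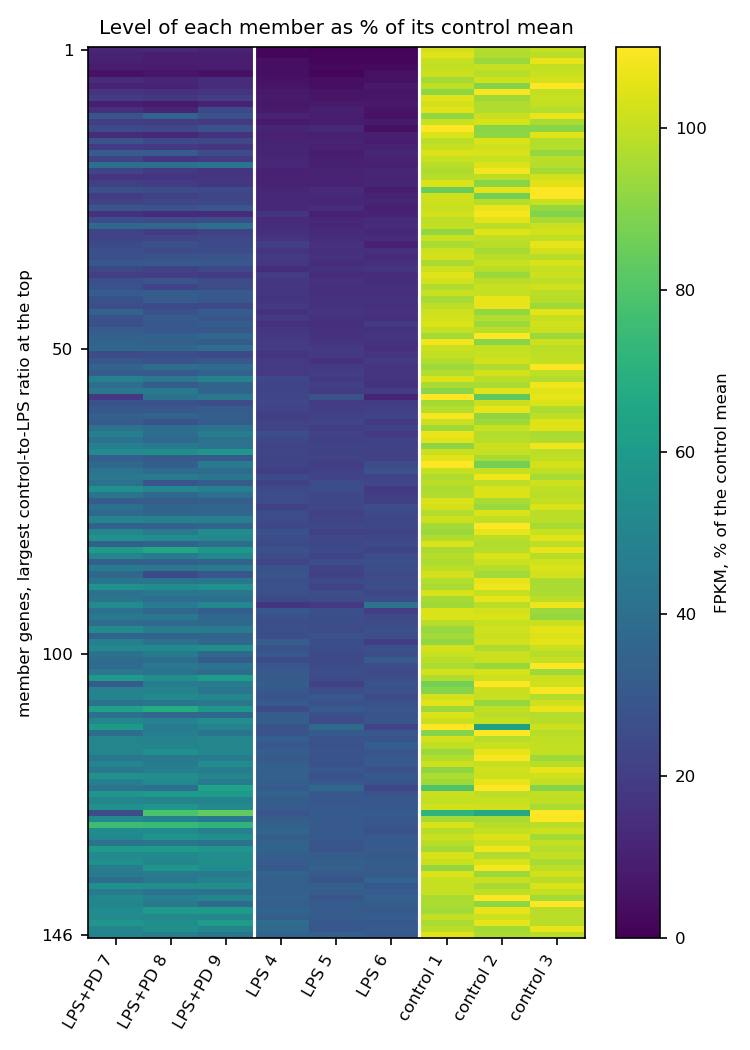
Level of each of the 146 genes in each library as a percentage of its own control mean, with genes in rows from the largest to the smallest control-to-LPS ratio and libraries in columns (LPS+PD, LPS, control). The LPS+PD columns are lighter than the LPS columns in nearly every row and darker than the control columns in nearly every row.

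The comparison of LPS+PD with LPS asked how much of the loss PD took back. With limma on log2(FPKM + 1), 139 of the 146 genes were higher with LPS+PD at an adjusted p below 0.05 and none was lower, also at an unadjusted p below 0.05, and limma voom on recovered fragments gave 140 and 0. Among all 13692 tested genes, 23.8% were called higher and 13% lower. Under median-of-ratios scaling between libraries, 15.3% of the tested genes were called higher, and higher calls fell to 45.7% of all calls, against 64.7% of all calls without that scaling. In the group itself 136 genes were still called higher under it. The median log2 difference was 0.65 in the group and 0.07 over all tested genes. The 3 LPS libraries also served to choose the genes, so this count is not independent of the choice. The 7 genes not called were NFE2, GOLGA8O, RF00019, AC007907.1, AL355922.1, AL117328.1 and RNU6-1178P, with limma adjusted p of 0.0551 to 0.484, and they are named because the count is small. In 141 genes all 3 LPS+PD libraries lay above all 3 LPS libraries, which 32.8% of tested genes did.

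Against control, 145 of the 146 genes were lower with LPS+PD and none was higher, by limma at an adjusted p below 0.05 and by voom alike, and none was higher at an unadjusted p below 0.05. Over all tested genes 28.7% were called lower and 26.0% higher. The gene not called was RNU6-1178P, a small nuclear RNA gene with 6 to 35 fragments per library (limma adjusted p = 0.208). The control libraries also chose the genes. With LPS+PD the group stood partway between LPS and control, since all 146 LPS+PD means lay between the LPS mean and the control mean. A mean above that with LPS was not particular to the group. Among genes of the same control level outside it, the LPS+PD mean was below the LPS mean in 10 of 465 with a control-to-LPS ratio of 1.5 to 2. With a ratio of 2 to 3 this held for 5 of 197.

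The regained share was computed for each gene as the LPS+PD mean minus the LPS mean, as a percentage of the control mean minus the LPS mean, in FPKM. Its median over the group was 19.2%, with quartiles of 12.6% and 28.2%. The extremes were 1.79% for NFE2 and 61.9% for CA2. Taken with each LPS+PD library alone, the median was 19.7%, 19.1% and 19.2%, so the 3 libraries gave nearly the same value. The SE of a gene's share had a median of 2.07 percentage points, and 140 shares exceeded 2 SE. By size, 22 genes regained under 10%, 57 regained 10% to 20%, 37 regained 20% to 30%, 22 regained 30% to 40% and 7 regained 40% to 50%. In FPKM CA2 alone passed 50%, while on the log2(FPKM + 1) scale other genes did too, among them CCDC88B (64.1%) and F3 (62.1%). Of the summed loss of all 146 genes 18.02% came back, and 21.3% without the 5 most abundant genes, which held 54.9% of that loss. On the log2(FPKM + 1) scale the median share was 33.4%, since this scale weighs a gain at a low level more.

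**Figure D2:**
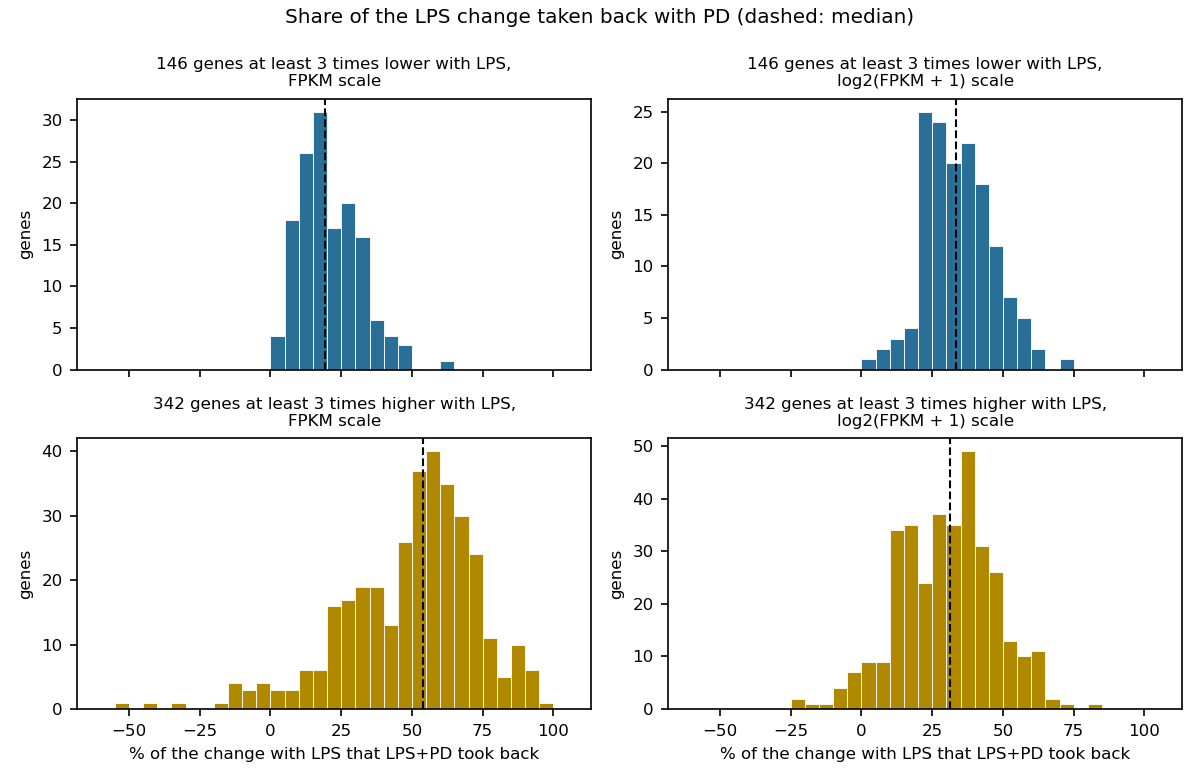
Number of genes by the percentage of the LPS change that LPS+PD took back, in FPKM (left) and on the log2(FPKM + 1) scale (right), for the 146 genes lowered by LPS (top) and the 342 genes raised at least 3 times by LPS to at least 10 FPKM (bottom); dashed lines are medians. In FPKM the medians are 19.2% and 53.9%, and on the log2 scale they are 33.4% and 31.3%.

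The mirrored choice, genes with an LPS mean of at least 10 FPKM and at least 3 times the control mean, gave 342 genes. With LPS+PD, the median of these lost 53.9% of its rise in FPKM (quartiles 35.1% and 65.2%), and 199 of them, 58.2%, lost at least 50%. In the group lowered by LPS 0.685% regained at least 50%. On the log2(FPKM + 1) scale the medians were 33.4% in the group lowered by LPS and 31.3% in the genes raised, so the order turned round. The difference was not tested, and both sets share all 9 libraries.

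In the medians in FPKM, genes that had fallen further regained a smaller share, while their fold over LPS was larger. The 62 genes with a control mean 3 to 4 times the LPS mean regained a median of 26.4%, at a median of 1.61 times the LPS level. The 37 genes with a ratio of 4 to 6 regained 21.6%, at 1.81 times the LPS level. The 47 genes with a ratio of 6 or more regained 11.3%, at 1.86 times the LPS level, and stood at 23.2% of control with LPS+PD and 11.1% with LPS. Outside the group, 197 genes of the same control level with a ratio of 2 to 3 had a median share of 28.5%, at 1.40 times the LPS level, and 465 genes with a ratio of 1.5 to 2 had a median share of 29.7%, at 1.21 times. Calls of a higher level with LPS+PD than with LPS took in 77.0% of the genes with a ratio of 1.5 to 2, 85.8% with 2 to 3, 93.5% with 3 to 4, 97.3% with 4 to 6 and 95.7% with 6 or more. The LPS mean enters both the ratio and the share, so these medians are a description. On the log2(FPKM + 1) scale the order did not hold over all bands. There the median share was 35.3% at a ratio of 1.5 to 2, 38.0% at 2 to 3, 39.3% at 3 to 4, 35.3% at 4 to 6 and 27.6% at 6 or more, so it was highest at 3 to 4. Just inside it, PRRG4 had a ratio of 3.00, LINC00482 of 3.02 and HES6 of 3.03, with shares of 19.2%, 28.2% and 36.4%. Just outside it, COQ8A had a ratio of 2.99 and CEBPA-AS1 and LYL1 of 2.97, with shares of 33.1%, 38.7% and 27.1%. At the level of 10 FPKM, F13A1 with a control mean of 10.1 FPKM and MPST with 10.3 FPKM were inside. DNM1 with 9.87 FPKM and LINC00899 with 9.86 FPKM were outside.

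**Figure D3:**
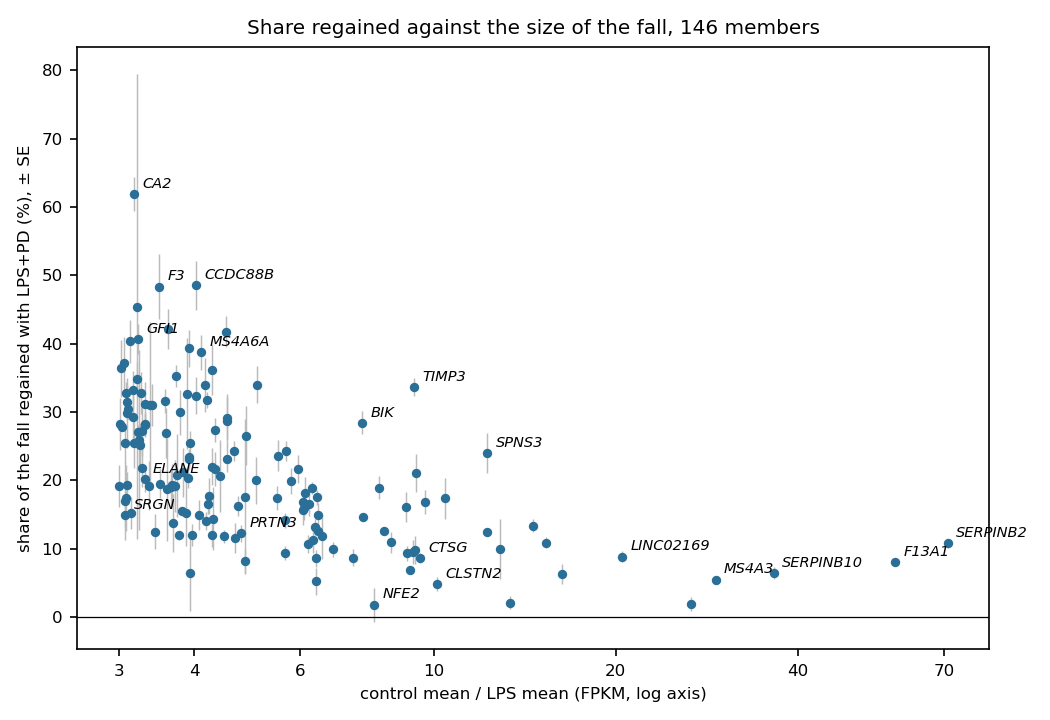
Share of the fall regained with LPS+PD (percent, ± SE from 3 libraries a group) against the ratio of control mean to LPS mean (log axis), 1 point per gene for 146 genes. Shares reach 61.9% at ratios near 3 and lie at 5.45% to 10.7% for the 4 labelled genes with ratios from 29.3 to 70.9.

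In control libraries, 3 genes of azurophil granules and the gene of their carrier had the 4 highest levels of the group. SRGN encodes serglycin, the proteoglycan that packs granule proteins (ENSG00000122862, GRCh38 chromosome 10, 69088106 to 69104811). It had 1152, 1072 and 1059 FPKM in LPS+PD libraries, 867, 821 and 820.4 FPKM in LPS libraries and 2578, 2557 and 2582 FPKM in control libraries. The groups did not overlap, and the regained share was 14.9% ± 1.84 (SE, n = 3 libraries a group). The log2 difference between LPS+PD and LPS was 0.39 ± 0.04 (SE, limma adjusted p = 3.87e-05). ELANE, neutrophil elastase (ENSG00000197561, chromosome 19, 851014 to 856247), had 611, 618 and 649.6 FPKM with LPS+PD, 439, 406 and 436 with LPS and 1376, 1540 and 1329 in control. Its share was 20.2% ± 1.97, with a log2 difference of 0.55 ± 0.06 (limma adjusted p = 6.28e-05). PRTN3, proteinase 3 (ENSG00000196415), whose promoter stretch holds all 3 marked motifs, had 383, 383 and 408 FPKM with LPS+PD, 283, 254 and 266 with LPS and 1249.8, 1359 and 1234 in control. It regained 12.2% ± 1.21. CTSG, cathepsin G (ENSG00000100448, chromosome 14, 24573522 to 24576260, minus strand), had 259, 250.01 and 236 FPKM with LPS+PD, 155, 135 and 140.0 with LPS and 1363, 1388 and 1331 in control. LPS took CTSG furthest of the 4, to a control-to-LPS ratio of 9.49. Its regained share in FPKM was the smallest of the 4, at 8.62% ± 0.708, with a log2 difference of 0.79 ± 0.05 (limma adjusted p = 4.51e-06). On the log2(FPKM + 1) scale the shares were 24.4% for CTSG, 24.3% for PRTN3, 23.9% for SRGN and 32.1% for ELANE, so CTSG was not the smallest there. Within each of these genes the 9 libraries fell into 3 separate levels. On a wider list of azurophil and primary granule genes 14 were tested, the 4 genes above included: 9 were called higher and 0 lower with LPS+PD than with LPS, and 3 were higher and 10 lower with LPS than in control. In the comparison of LPS with control 26.4% of all tested genes were called higher and 39.7% lower. In that of LPS+PD with LPS 23.8% were called higher and 13% lower. AZU1, azurocidin, fell short of the ratio of 3, at 840 ± 15.1 FPKM with LPS+PD, 582 ± 20.7 with LPS and 1655 ± 91.1 in control (SD, n = 3). MPO, myeloperoxidase, was at 0.415, 0.220 and 2.90 FPKM in the same order.

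**Figure D4:**
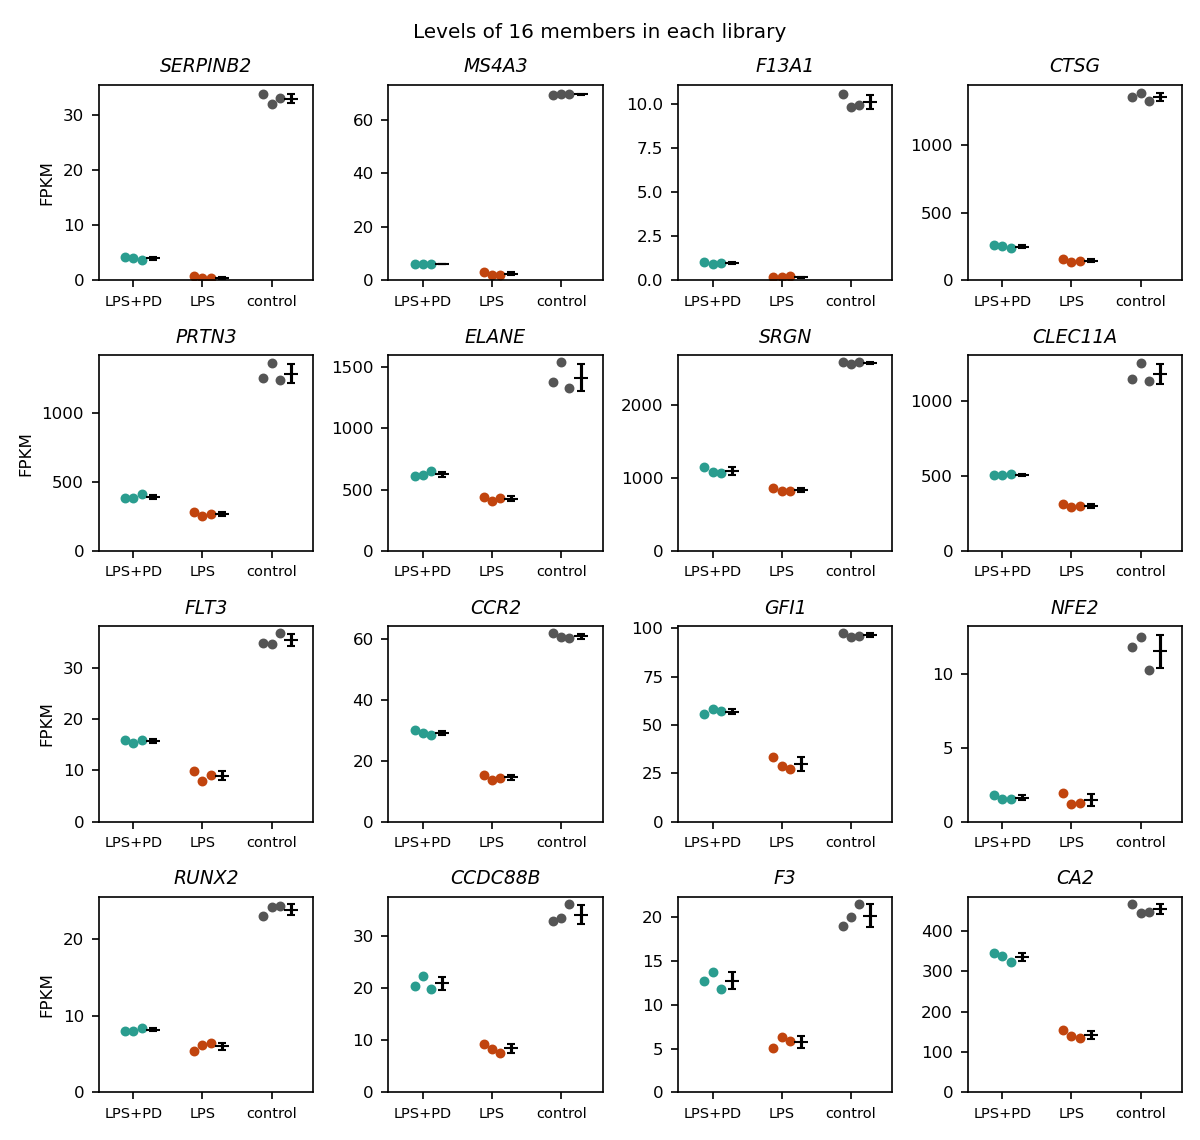
FPKM of 16 of the 146 genes in each library, 1 panel per gene with its own axis from 0; points are libraries (LPS+PD, LPS, control from left to right) and bars beside them are mean ± SD of 3 libraries. The LPS+PD points lie between the LPS and control points in each panel except NFE2, where LPS+PD and LPS overlap, and CA2 and F3 come closest to control.

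Of 3 protease inhibitor genes in the group, SERPINB2 had the largest control-to-LPS ratio of all 146 genes, at 70.9, against 36.6 for SERPINB10 and 9.24 for TIMP3. SERPINB2 is plasminogen activator inhibitor type 2 (ENSG00000197632, chromosome 18, 63871692 to 63903890). It had 4.23, 3.99 and 3.66 FPKM in LPS+PD libraries, 0.680, 0.379 and 0.337 FPKM in LPS libraries and 33.8, 32.0 and 33.2 FPKM in control libraries. The LPS values rest on 33, 17 and 15 fragments, against 208, 186 and 179 with LPS+PD. Its level with LPS+PD was 8.51 times that with LPS, the largest such fold in the group, yet the share regained in FPKM was 10.7% ± 0.618 (log2 difference 1.76 ± 0.08, limma adjusted p = 7.97e-07). On the log2(FPKM + 1) scale the share of SERPINB2 was 38.85%, above the group median of 33.4%. SERPINB10, a serpin of blood cells also called bomapin, had 1.24, 1.11 and 1.14 FPKM with LPS+PD, 0.566, 0.227 and 0.274 with LPS and 13.1, 12.1 and 13.8 in control, a regained share of 6.41% ± 0.880. SERPINB2 and SERPINB10 overlap on the same strand, so reads of the shared stretch cannot be told apart and the level of each is uncertain. TIMP3, an inhibitor of matrix metalloproteinases, had 10.2, 10.5 and 10.8 FPKM with LPS+PD, 3.28, 2.53 and 2.52 with LPS and 25.2, 26.7 and 25.1 in control. Its share of 33.6% ± 1.28 was the highest of the 47 genes with a control-to-LPS ratio of 6 or more. Of 12 tested genes on a list of serpins, 4 were called higher, SERPINB2 and SERPINB10 among them, and 6 lower with LPS+PD than with LPS. Over all tested genes 23.8% were called higher and 13% lower. With LPS against control, 7 of the 12 were higher and 5 lower, so most of the list did not fall with LPS. SERPINB9, an inhibitor of granzyme B, went the other way, at 1.012 ± 0.139 FPKM with LPS+PD, 8.94 ± 1.28 with LPS and 0.0493 ± 0.0317 in control (limma adjusted p = 5.52e-07 for LPS+PD against LPS). It was chosen after its values were seen.

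Coagulation genes regained unequal shares. F13A1, the catalytic A subunit of factor XIII (ENSG00000124491), had 1.05, 0.917 and 0.957 FPKM with LPS+PD, 0.157, 0.157 and 0.210 with LPS and 10.6, 9.83 and 9.97 in control. That was 73 to 88 fragments with LPS+PD and 12 to 16 with LPS, and the share was 8.03% ± 0.467. F13A1 met the minimum level for testing only through its control libraries, so its difference from control had to be large. F3, tissue factor, which starts the extrinsic pathway (ENSG00000117525, chromosome 1, 94529225 to 94541800), had 12.7, 13.7 and 11.8 FPKM with LPS+PD, 5.06, 6.33 and 5.92 with LPS and 18.96, 20.1 and 21.5 in control. The LPS+PD libraries of F3 came closer to control than those of most of the 146 genes, and its share was 48.4% ± 4.77 (log2 difference 1.02 ± 0.08, limma adjusted p = 1.41e-05). PRRG4, a membrane protein with a Gla domain, regained 19.2% ± 3.10. On the list of coagulation, plasminogen and matrix genes, which holds F13A1, F3 and TIMP3 but not PRRG4, 16 were tested. With LPS+PD against LPS, 4 of these were called higher and 10 lower, beside 23.8% and 13% of all tested genes. With LPS against control, 12 of the 16 were higher and 4 lower, beside 26.4% and 39.7% of all tested genes. The 146 genes were chosen for a fall with LPS, so the contrast with most of this list follows from the choice.

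The MS4A genes encode membrane proteins with 4 transmembrane spans. MS4A3, which marks granulocyte-monocyte precursors (ENSG00000149516, chromosome 11, 60056587 to 60071128), had 6.20, 5.99 and 5.95 FPKM with LPS+PD, 3.00, 2.05 and 2.09 with LPS and 69.4, 69.8 and 69.5 in control. Its share of 5.45% ± 0.451 in FPKM was among the lowest, although the level was 2.54 times that with LPS (log2 difference 1.07 ± 0.09, limma adjusted p = 2.22e-05). MS4A6A, a gene of monocytes and macrophages 100885 bases away, had 28.2, 26.7 and 25.4 FPKM with LPS+PD, 12.98, 11.8 and 11.7 with LPS and 48.4, 49.1 and 52.1 in control, a share of 38.7% ± 2.58. MS4A4E, 16586 bases further on, regained 10.9% ± 1.52. Neighbours in this cluster thus differed in share by several times their SE in FPKM. On the log2(FPKM + 1) scale the shares were 24.4% for MS4A3, 24.7% for MS4A4E and 55.2% for MS4A6A. Of 6 tested MS4A genes, the 3 above included, 4 were called higher and 2 lower with LPS+PD than with LPS. All 3 are among the 4 called higher, and their low LPS level was part of the choice of genes. Over all tested genes 23.8% were called higher and 13% lower.

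The 10 genes grouped as cell-surface receptors, with the selectin ligand SELPLG, regained 11.6% for VLDLR, a lipoprotein receptor, to 32.4% for LRP5, a Wnt co-receptor. This grouping by role, like the others below, was made after the values were seen. With 139 of all 146 genes called higher with LPS+PD than with LPS, the calls within a role (10 of 10 here) do not set it apart. FLT3, a receptor tyrosine kinase of blood progenitors, had 15.97, 15.3 and 15.9 FPKM with LPS+PD, 9.85, 8.02 and 9.15 with LPS and 35.0, 34.6 and 36.8 in control, a share of 25.4% ± 1.82. CCR2, the receptor for CCL2 on classical monocytes, had 29.9, 29.1 and 28.5 FPKM with LPS+PD, 15.4, 13.8 and 14.2 with LPS and 61.7, 60.5 and 60.03 in control. Its share was 31.7% ± 1.18 (log2 difference 0.96 ± 0.04, limma adjusted p = 4.29e-07), and the 3 levels were far apart. The G-CSF receptor CSF3R regained 29.2% ± 3.5, the CXCL8 receptor CXCR2 21.1% ± 2.76, the P-selectin ligand SELPLG 19.2% ± 3.8 and the GDNF family receptor RET 12.6% ± 0.611. RET had a control mean of 80.4 ± 1.63 FPKM, against 18.7 ± 0.521 with LPS+PD and 9.75 ± 0.569 with LPS (SD, n = 3). CLEC11A, a secreted growth factor of blood progenitors, was the fifth most abundant gene of the group in control, at 504, 504 and 511 FPKM with LPS+PD, 316, 290.5 and 297 with LPS and 1149.8, 1258 and 1137 in control (share 23.3% ± 1.24). Of 36 tested genes on a list of progenitor and monocyte surface receptors, 12 were called higher and 15 lower with LPS+PD than with LPS. The 12 include 5 of the 146 genes (CLEC11A, CSF3R, FLT3, SELPLG and CCR2). Over all tested genes 23.8% were called higher and 13% lower.

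Transcription factors and cofactors regained a median of 27.7% over 16 genes, and 15 of them were called higher with LPS+PD than with LPS, a share near that of the 146 genes. Their median control-to-LPS ratio was 3.62, against 4.285 over the 146 genes, so the median shares compare unlike falls. GFI1, a repressor that governs granulocyte and monocyte fate (ENSG00000162676), had 55.5, 58.1 and 57.4 FPKM with LPS+PD, 33.7, 28.9 and 27.0 with LPS and 97.7, 95.6 and 96.3 in control. It regained 40.7% ± 2.16 (log2 difference 0.92 ± 0.07, limma adjusted p = 8.66e-06), the most of this role. RUNX2, a runt-domain factor of bone and of plasmacytoid dendritic cells, had 8.03, 8.05 and 8.39 FPKM with LPS+PD, 5.44, 6.17 and 6.41 with LPS and 23.0, 24.2 and 24.3 in control, a share of 12.01% ± 1.60. It overlaps an antisense gene, AL096865.1, which is also among the 146 genes, and without strand their reads cannot be told apart. CITED4, a cofactor that binds CBP and p300, regained 14% ± 1.33, HES6 36.4% ± 4.14, the homeobox gene IRX3 24.3% ± 1.52 and the chromatin organiser SATB1 30.4% ± 1.40. NFE2, a factor of megakaryocytes and erythroid cells, had 1.84, 1.55 and 1.52 FPKM with LPS+PD, 1.93, 1.19 and 1.25 with LPS and 11.9, 12.5 and 10.3 in control. LPS+PD and LPS libraries of NFE2 overlapped, and its share of 1.79% ± 2.5 was within its error of 0 (limma adjusted p = 0.484). On a list of 27 tested progenitor and myeloid transcription factors, 12 were called higher and 7 lower with LPS+PD than with LPS. GFI1 and RUNX2 were among the 12, and over all tested genes 23.8% were called higher and 13% lower.

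Kinases, phosphatases and signalling proteins regained a median of 20.3% over 12 genes, at a median control-to-LPS ratio of 3.98. Of the 12 genes, 12 were called higher with LPS+PD than with LPS, again near the share of the 146 genes. CCDC88B, a protein of T-cell and myeloid cell function (ENSG00000168071, chromosome 11, 64340223 to 64357534), had 20.5, 22.3 and 19.9 FPKM with LPS+PD, 9.28, 8.41 and 7.65 with LPS and 32.8, 33.4 and 36.1 in control. It regained 48.6% ± 3.56, second to CA2 (log2 difference 1.22 ± 0.07, limma adjusted p = 1.99e-06). RPS6KA4, the kinase MSK2 downstream of p38 and ERK (ENSG00000162302), begins 1613 bases after CCDC88B on the same strand. It had 25.4, 24.0 and 25.3 FPKM with LPS+PD, 12.6, 10.3 and 11.9 with LPS and 43.7, 48.9 and 43.6 in control, a share of 39.3% ± 2.71. Both neighbours thus stood in the upper part of the group. The receptor-type tyrosine phosphatase PTPRF regained 41.7% ± 2.23, the phosphatase and actin regulator PHACTR3 42.2% ± 2.88 and the haematopoietic kinase MAP4K1 36.2% ± 3.68. TMEM173, the cytosolic DNA sensor adaptor STING, regained 15.2% ± 2.33, at 52.2 ± 0.798 FPKM with LPS+PD, 39.4 ± 3.89 with LPS and 124 ± 2.11 in control (SD, n = 3). The death and survival genes were BIK, a BH3-only protein (28.4% ± 1.68), PDCD4, a translation inhibitor (19.8% ± 1.91), and BCL2 (11.8% ± 0.971).

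Enzymes regained a median of 25.5% over 13 genes, at a median control-to-LPS ratio of 3.79, against 4.285 over the 146 genes. Of the 13 genes, 13 were called higher with LPS+PD than with LPS, which is also near the share of the 146 genes. CA2, the cytosolic carbonic anhydrase (ENSG00000104267, chromosome 8, 85463852 to 85481493), had 344, 337 and 324 FPKM with LPS+PD, 154, 139 and 134 with LPS and 468, 445 and 448 in control. All 3 LPS+PD libraries were more than 2 times any LPS library and below every control library, and the share was 61.9% ± 2.52 (log2 difference 1.23 ± 0.05, limma adjusted p = 3.71e-07; against control -0.44, limma adjusted p = 5.44e-05). CAT, catalase, which breaks down hydrogen peroxide, had 64.9, 60.7 and 60.8 FPKM with LPS+PD, 35.2, 32.8 and 32.9 with LPS and 205, 200.5 and 206 in control, a share of 16.8% ± 0.919. The endoplasmic reticulum calcium pump ATP2A3 regained 40.3% ± 3.19. LTC4S, leukotriene C4 synthase, regained 9.50% ± 1.82 and the glycosyltransferase gene B3GNT7 10.9% ± 0.783. Other named genes at the low end of share were CLSTN2 (4.83% ± 1.06), SEL1L3 (6.81% ± 0.467) and ANXA4 (8.55% ± 1.26). MYADM, named for its large control-to-LPS ratio, regained 12.5% ± 0.608, near the lower quartile of the group. SPNS3, a putative sphingolipid transporter, regained 24.0% ± 2.98 in spite of a control-to-LPS ratio of 12.3.

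Some of the 146 genes lie side by side. In the IRX3 neighbourhood on chromosome 16, 4 of 5 listed genes belonged to the group. The noncoding LINC02169 (54245618 to 54270746) had 19.995, 16.8 and 19.6 FPKM with LPS+PD, 7.34, 6.47 and 6.97 with LPS and 135, 144 and 146 in control, a share of 8.82% ± 0.803. IRX3, 12557 bases away, had 32.2, 31.9 and 34.2 FPKM with LPS+PD, 16.9, 15.8 and 13.3 with LPS and 88.1, 86.9 and 86.0 in control. The noncoding AC007907.1 regained 1.89% and AC018553.1 11.3%, so the shares differed within 1 neighbourhood. In the elastase neighbourhood on chromosome 19, PLPPR3 (share 21.6%), PRTN3 and ELANE belonged to the group. AZU1, between PLPPR3 and PRTN3, regained 24.1% and CFD, complement factor D, 15.9% from smaller falls, and CFD was at 337 FPKM with LPS+PD, 292 with LPS and 575 in control (limma adjusted p = 0.0115 for LPS+PD against LPS). The next gene, MED16, a Mediator subunit, was at 13.5, 13.4 and 15.4 FPKM in the same order. The 4 GOLGA8 genes of the group (GOLGA8M, GOLGA8N, GOLGA8O and GOLGA8Q) are near-identical copies, and their single levels are uncertain.

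**Figure D5:**
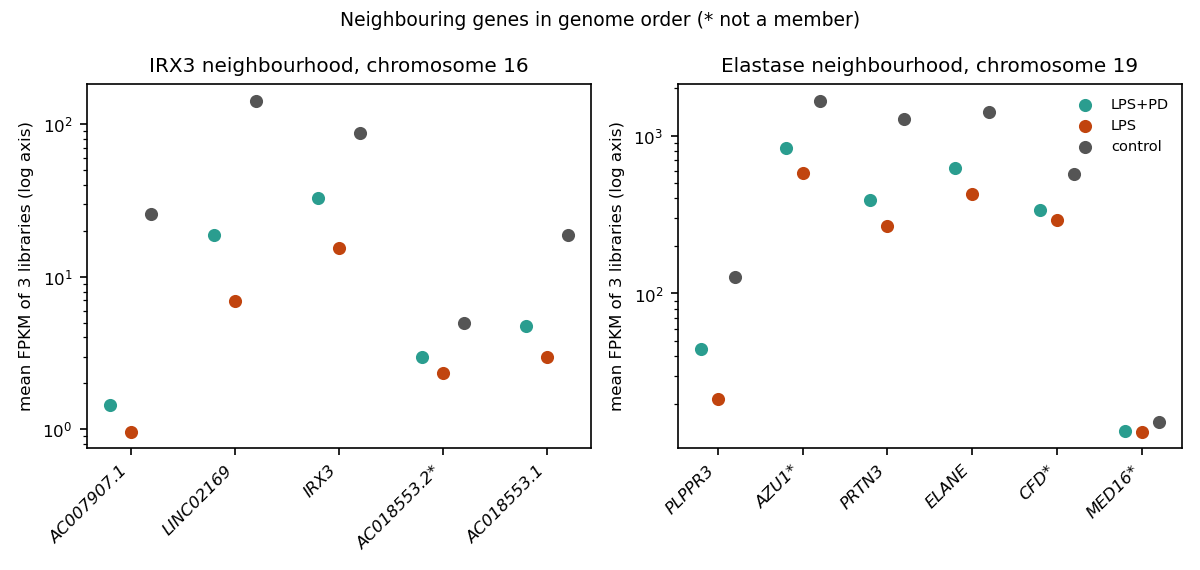
Mean FPKM of 3 libraries (log axis) for genes in genome order around IRX3 on chromosome 16 and around ELANE on chromosome 19, with LPS+PD, LPS and control points from left to right for each gene; a star marks genes outside the group of 146. LPS is lowest and control highest for each gene, and MED16 is nearly level.

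By type, 119 of the 146 genes (81.5%) were protein-coding, against 94.1% of genes with a control mean of at least 10 FPKM, and 13 were lincRNA and 8 antisense genes. No gene on the lists of cell cycle and DNA replication, ribosome biogenesis, MAP kinase feedback or cytosolic ribosomal proteins belonged to the group. The group holds 146 of the 13692 tested genes, so absence from lists of 24 to 42 tested genes says little. Of 24 tested MAP kinase feedback genes 2 were called higher and 19 lower with LPS+PD than with LPS. With LPS against control, 22 of these 24 were higher and 1 lower. Of 26 cytosolic ribosomal protein genes 20 were higher and 0 lower with LPS+PD than with LPS, with all 26 lower with LPS than in control. Over all tested genes 23.8% were called higher and 13% lower with LPS+PD than with LPS. With LPS against control these shares were 26.4% and 39.7%. LPS replicate 4 was the highest LPS library for 96 of the 146 genes, against 38.9% of tested genes. The median level in percent of control was 23.7% in that library and 22.3% and 22.1% in the other two, and without replicate 4 the median regained share was 20.4%.

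The labelled cell type was checked on markers. Of 9 listed THP-1 markers, SPI1 (PU.1) was at 219, 266 and 135 FPKM with LPS+PD, with LPS and in control. In the same order LYZ was at 301, 158 and 169, and CD33 at 12.7, 11.4 and 14.8. CSF1R was at 41.3, 78.6 and 30.4, ITGAM at 19.2, 11.8 and 5.0, and FCGR2A at 11.3, 12.2 and 15.3. The macrophage marker CD68 stood at only 0.216, 0.237 and 0.128, and MPO at 0.415, 0.220 and 2.90. ELANE is given above, and these markers did not move in 1 direction between groups. Markers of other cell types were low: 12 epithelial markers summed to 3.87 to 4.66 FPKM per library with LPS+PD, 6.50 to 8.59 with LPS and 2.98 to 3.36 in control. The 11 fibroblast and endothelial markers listed in the table summed to 1.48 to 2.05, 4.16 to 4.40 and 0.395 to 0.678 FPKM. The 8 erythroid and megakaryocyte markers listed there summed to 1.88 to 2.5, 1.54 to 1.92 and 3.28 to 4.36 FPKM, with HBA1 and PPBP at 0. GP9 carried most of that difference, at 0.297, 0.220 and 2.10 FPKM, while GP1BA ran the other way, at 1.78, 1.32 and 1.03 FPKM. The 11 lymphocyte markers summed to 25.6 to 30.9, 32.0 to 34.9 and 18.1 to 24.6 FPKM, with CD3G at 0. Most of it was NKG7, at 20.7, 30.6 and 17.5 FPKM, and IGKC stood at 5.31, 1.05 and 0 FPKM. The summed erythroid and megakaryocyte markers were lower with LPS than in control, as the 146 genes were, though GP1BA was not, and the part of these markers in the result was not tested.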

How the data were processed

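Poly(A)-enriched RNA of 9 THP-1 libraries was sequenced, in 3 groups of 3 taken from the sample titles. The authors deposited 1 table of FPKM values for 34643 genes. Tools listed in the submitters' processing notes, with no version, are bcl2fastq, FastQC, HISAT2 and StringTie, and the build is GRCh38. How multi-mapped reads and strand were treated is not given in the sources used here, nor are the length of LPS and PD exposure and any vehicle. Multiplied by GENCODE v29 exon length, 96.5% to 97.7% of the deposited FPKM values came out as whole fragments within 0.05, which gave the depths. Of the gene IDs 34579 (99.8%) are in GENCODE v29.

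The 146 genes, the gene lists and the alternatives were chosen with earlier results of these data known. Of the 146 genes all passed the filter for testing (at least 1 FPKM in at least 3 libraries), and 1 of them, F13A1, passed only through its control libraries. Tests used limma 3.58.1 (R 4.3.3) after a log2(FPKM + 1) transform, with 1 model for the 3 groups, eBayes with an intensity trend and Benjamini-Hochberg adjustment over 13692 genes, called below 0.05. Fold changes on this scale understate changes of low genes. The SE of a share came from the delta method. Named genes were those with the 8 largest ratios, the 8 highest control means, the 8 highest and 8 lowest shares, up to 4 per list and 3 on either side of the ratio of 3, without clone names and duplicated symbols (21 genes). Other genes named by role or neighbourhood were chosen after their values were seen. The fit was also run on simulated data with a preset spread and few changed genes, so that run does not measure error in these data. Figures used matplotlib 3.10.9, and tables pandas 2.3.3. Intervals cover spread between libraries only.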

Additional observations from a re-analysis of the deposited data

How the results depend on the processing

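The count of genes higher with LPS+PD than with LPS ran from 130 to 142 over the alternatives, and from 136 to 140 with 1 library left out. The count lower with LPS+PD than in control was 144 or 145 throughout, and none of the 146 genes was called in the opposite direction in any of these settings. The median regained share was 33.4% on the log2(FPKM + 1) scale, 18.1% under median-of-ratios scaling and 17.2% under quantile normalization. It was 25.2% with a ratio of 2 in the choice of genes, 15.3% with 4, 19.6% with a control mean of at least 5 FPKM and 17.4% with at least 20, and 18.8% to 20.4% with 1 library left out, the highest without LPS replicate 4. Restricted to protein-coding genes of at least 500 bases of exon, a choice made after seeing the data, it was 19.7%. The number of genes chosen was 343 with a ratio of 2, 84 with a ratio of 4, 232 at 5 FPKM and 83 at 20 FPKM, 123 under median-of-ratios scaling (all of them shared) and 138 to 151 with 1 library left out. Over 80 named genes and 19 alternatives each, 1501 single-gene results kept their call, 12 were no longer called (GOLGA8N in 9 and TEC in 3), 7 became called and none reversed. No paired analysis was possible because the replicate numbers run from 1 to 9 and no number is shared between groups. Genes with under 20 fragments per LPS library, such as F13A1, have the least certain folds.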
